A study of Mus musculus with 4 samples.

Results

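Early-response feedback regulators, 10 of the 20308 genes counted in the study, were chosen by gene name and read in microglia, the resident macrophages of the brain, isolated from mice at postnatal day 11. They are the mRNA decay factors Zfp36, Zfp36l1 and Zfp36l2, the antiproliferative genes Btg1 and Btg2, the phosphatases Dusp1, Dusp2 and Dusp6, and the cytokine signalling suppressors Socs1 and Socs3. RNA had been sequenced from 2 libraries labelled Pd1fl/fl and 2 labelled Pd1cKO-Cx3. The notation stands for a floxed allele of Pdcd1, which encodes the inhibitory receptor PD-1, and for its conditional knockout. All 4 libraries were total RNA from microglia of 1 age, and the study is titled as one on PD-1 in microglial pruning of brain vessels. The labels do not say what driver "Cx3" stands for, whether the controls carried it, which strain or sex was used, or whether the libraries came from separate animals, so each p-value measures only the spread between these samples. The targeted gene Pdcd1 was counted 0 and 43 times in Pd1fl/fl replicates 1 and 2, but 179 and 154 times under the label Pd1cKO-Cx3 (replicates 2 and 3). Its level went against the labels, which do not say which exons were to be deleted, and every direction below follows the labels.

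These genes belong to the brakes that a cell switches on together with its first response to a stimulus. Growth factors, cytokines and stress activate MAP kinases and STAT proteins, which within minutes induce transcription factors such as Fos and Egr1 and, beside them, inhibitors of the same signals. Proteins of the ZFP36 family bind AU-rich elements in the 3′ untranslated region (UTR) of short-lived mRNAs, many of them cytokine mRNAs, and recruit the CCR4-NOT complex, which shortens the poly(A) tail. BTG1 and BTG2 bind the same deadenylase complex and restrain cell division. DUSP1, DUSP2 and DUSP6 remove phosphates from MAP kinases, with DUSP6 acting mainly on ERK. SOCS1 and SOCS3 block JAK-STAT signalling, SOCS1 chiefly behind interferon receptors and SOCS3 behind receptors that use gp130. In freshly isolated microglia several of these transcripts are also known to be induced by the handling of tissue.

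Sequence elements through which early-response genes are known to be controlled are shown first, as some members carry them and others do not. ZFP36 proteins bind the nonamer TTATTTATT, and 4 of the 10 members carried it in the 3′ UTR of the GENCODE M21 transcript with the longest coding sequence. These were Zfp36 itself and both of its relatives, with 1 match each, and Dusp1 with 2. The windows of 25 bases around the matches are given below 5′ to 3′ as DNA letters on the gene's strand, with each ATTTA pentamer in capitals.
Zfp36: tgacgactttATTTAttgtattaag
Zfp36l1: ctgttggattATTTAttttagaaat
Zfp36l2: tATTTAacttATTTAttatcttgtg
Dusp1, first site: gctggtccttATTTATTTAacaccc
Dusp1, second site: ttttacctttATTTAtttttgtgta
The shorter form TATTTAT, which the nonamer contains, was found 3 times each in Zfp36, Zfp36l1, Zfp36l2 and Dusp1, 2 times in Socs3, once in Btg2 and Dusp2, and not in Btg1, Dusp6 or Socs1. Only the transcribed strand was searched, and overlapping matches were each counted. Long UTRs hold such letters by length alone, so each member was set beside all coding genes with a 3′ UTR within 10% of its own length. Among 1230 genes with a UTR near the 774 bases of Zfp36, 4.72% held the nonamer and 1.46% had at least 3 copies of TATTTAT. Among 1148 genes near the 690 bases of Dusp1 the shares were 4.53% and 1.48%. For Zfp36l1 (1835 bases) and Zfp36l2 (1822 bases), 9.41% and 9.54% of genes with a similar length held the nonamer. Socs1 had no ATTTA in 1993 bases, where the median of similar genes was 3, and Btg1 had 11 in 4166 bases, where it was 7.

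Promoter sequence from RefSeq on GRCm38.p6 was matched for 9 of the 10 members. In the 250 bases before the annotated start, both strands were searched for TGACGTCA (the cAMP response element), TGACTCA and TGAGTCA (the AP-1 site on either strand), the CArG box that serum response factor binds, TTCNNNGAA (the STAT site) and, by name, the κB site. Matches were found in 4 members. They are shown 5′ to 3′ on the gene's strand in windows of 30 bases, with the match in capitals.
Zfp36, CArG box, chr7:28379267-28379296, minus strand: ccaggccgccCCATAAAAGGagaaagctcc
Zfp36, STAT site, chr7:28379229-28379258, minus strand: gccacagcctgacTTCTGCGAAccgacagt
Btg2, cAMP response element, chr1:134079303-134079332, minus strand: gttcccaataaTGACGTCAgtgagcgatga
Dusp1, cAMP response element, chr17:26508597-26508626, minus strand: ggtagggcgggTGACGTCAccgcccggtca
Socs3, STAT site, chr11:117969501-117969530, minus strand: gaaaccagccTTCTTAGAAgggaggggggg
The CArG box of Zfp36 lay at bases -58 to -49 from the RefSeq start, and the cAMP response elements of Btg2 and Dusp1 at -166 to -159 and -143 to -136. For Zfp36 and Socs3 the RefSeq start lies inside the deposited gene span, whose 5′ end is farther upstream, so their windows fall within that span. The RefSeq start of Dusp1 also lies inside its deposited span, which ends at 26508519, but the window shown lies upstream of that end. Of 27025 promoters, 1.399% held a CArG box, 1.624% TGACGTCA and 7.179% TTCNNNGAA, so the last is common. A match of letters is a description and says nothing about whether a factor was bound.

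Members were short genes. Their span in the deposited coordinates, read as GRCm38, ran from 1729 bases for Socs1 to 5804 bases for Btg1, with a median of 3960, against a median of 24576 over 12480 tested coding genes. Zfp36 (ENSMUSG00000044786) lay on chromosome 7 from 28376784 to 28380253, Zfp36l1 (ENSMUSG00000021127) on chromosome 12 from 80107754 to 80113013, and Dusp1 (ENSMUSG00000024190) on chromosome 17 from 26505590 to 26508519, all on the minus strand. An exon of Zfp36l1 overlaps the opposite-strand long noncoding RNA Gm26669. That gene had 130 and 120 counts in the controls and 87 and 72 under the label Pd1cKO-Cx3. In GENCODE M21 an exon of Dusp1 overlaps the coding gene Ergic1, with 1169 to 1637 counts. There Dusp1 reaches base 26562128, beyond its deposited span, and whether the overlap falls within that span was not checked. The sources used here do not say whether counting used strand, so reads in any overlap within the deposited spans are uncertain.

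Library totals ran from 14258420 to 15908954 counts, and all 10 members passed the filter on low counts, which left 15097 genes. Genes that define microglia were abundant in all 4: Csf1r, the receptor on which microglia depend, had 15552 to 17175 CPM (the count scaled to the library total) in the 4 libraries, and the purinergic receptor gene P2ry12 stood at 14866 and 15129 CPM in the controls and at 11312 and 10691 CPM under the label Pd1cKO-Cx3. Summed over 8 microglial markers, the level was 60053 and 58472 CPM in the controls and 46533 and 43980 CPM under the label Pd1cKO-Cx3. Of these 8 genes, 4 were lower without overlap and none higher. Summed over 8 border-associated macrophage markers it was 446 and 545 against 721 and 713 CPM, with 7 of 8 genes higher without overlap. Markers of mural cells and fibroblasts summed to 78.9 and 44.7 against 169 and 167 CPM (Notch3 and Anpep at 0 in both controls). Those of endothelium summed to 98.9 and 66.7 against 137 and 110 CPM. Without overlap, 6 of 8 mural and fibroblast genes and 5 of 8 endothelial genes were higher. Markers of monocytes and neutrophils summed to 39.7 and 25 against 84.2 and 71.0 CPM, but of 5 genes only 1 was higher without overlap and 1 was lower. Lymphocyte markers summed to 0 and 0.135 against 10.1 and 4.65 CPM, and of 4 genes 3 were higher without overlap. Over all 15097 genes tested, 18.8% were lower and 21.3% higher without overlap. Sums of astrocyte and oligodendrocyte lineage markers overlapped between groups. Neuronal markers summed to 27.3 and 32.9 against 55.5 and 33.4 CPM, with 2 of 6 genes higher without overlap. Mitochondrial genes took 1.23% and 1.02% of counts against 1.48% and 1.60%. Xist was counted only in Pd1fl/fl replicate 1 (13374 counts) and the Y-linked Ddx3y only in the other 3 libraries (1891 to 2064 counts), so the controls differed in sex-linked expression. In bulk RNA, fewer cells of a type and less RNA per cell cannot be told apart, and the part of these differences in the results below was not tested.

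Zfp36 was the most abundant member in every library and had the smallest p of the 10. Divided by the length of the annotated exons, its level was 768 ± 70.9 CPM per kb in Pd1fl/fl and 425 ± 46.7 CPM per kb under the label Pd1cKO-Cx3 (SD, n = 2). Btg2 followed with 377 ± 75.8 and 279 ± 44.4 CPM per kb, then Dusp6 with 208 ± 24.4 and 187 ± 3.40, Dusp1 with 168 ± 45.4 and 108 ± 14.6, and Socs3 with 93.5 ± 23.6 and 66.8 ± 12.5. At the lower end stood Zfp36l1 (71.3 ± 5.16 and 48.5 ± 3.0), Btg1 (41.4 ± 0.199 and 31.0 ± 5.11), Zfp36l2 (32.9 ± 0.842 and 30.8 ± 1.53), Socs1 (6.71 ± 0.464 and 7.35 ± 2.48) and Dusp2 (0.946 ± 0.184 and 1.17 ± 0.905), all in CPM per kb. The order of the 10 means was the same in both groups, and the same in the controls when the length of 1 coding transcript was used in place of all exons. Within single libraries, Btg1 stood below Zfp36l2 in Pd1cKO-Cx3-labelled replicate 3 (27.4 against 31.9 CPM per kb), and every other neighbouring pair kept its order. By a stricter rule, the lowest library of a gene stood above the highest of the next at 4 places. These were Btg2 above Dusp6, Zfp36l1 above Btg1, Zfp36l2 above Socs1, and Socs1 above Dusp2. For the last, the lowest Socs1 library stood at 5.60 and the highest Dusp2 library at 1.81 CPM per kb. For the other neighbouring pairs the ranges over the 4 libraries overlapped. Within each family 1 gene held most of the signal per length: Zfp36 took 82.6% to 88.4% of the 3 ZFP36 genes, Btg2 88.6% to 91.3% of the BTG pair and Socs3 86.4% to 94.5% of the SOCS pair. Dusp6 and Dusp1 shared theirs, with 52.8% to 64.9% and 34.4% to 46.9%.

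**Figure D1:**
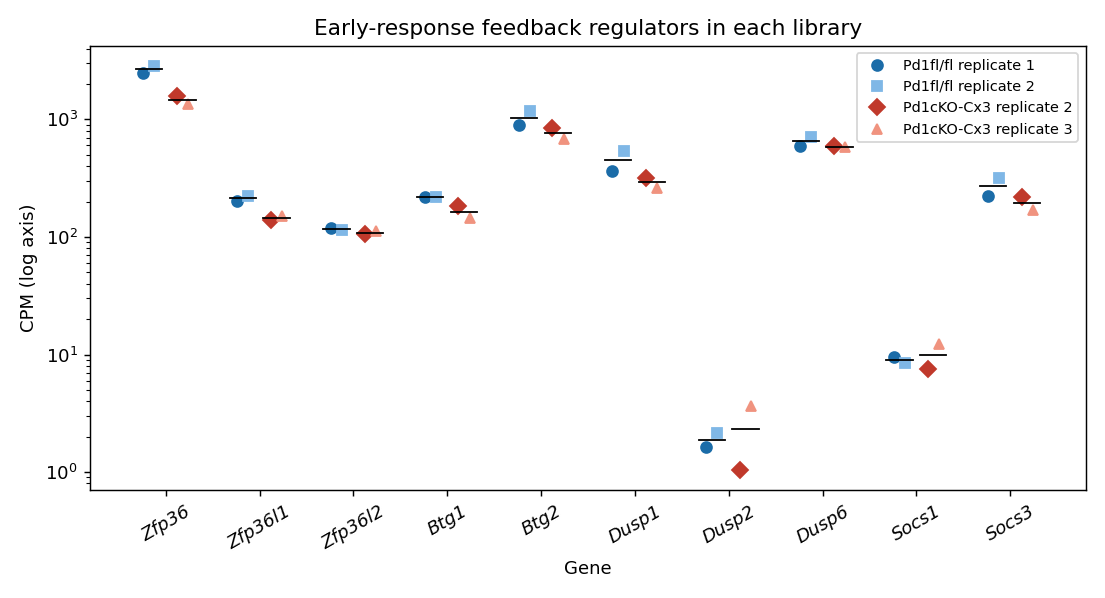
CPM of the 10 members in each library on a log axis, with 1 point per library and black bars at the mean of the 2 libraries of a group. For 8 genes, all but Dusp2 and Socs1, both Pd1fl/fl points lie above both Pd1cKO-Cx3 points; the gap is widest for Zfp36 and narrowest for Dusp6, Zfp36l2 and Socs3.

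For 8 of the 10 members, each library under the label Pd1cKO-Cx3 had lower CPM than either control, and for none had each higher CPM. Such separation downward was seen for 18.8% of the 15097 genes tested (19.3% with TMM-scaled CPM, where 8 members were again separate) and for 24.1% of the 1943 genes with a mean of at least 100 CPM. None of the 10 passed the test across all genes, in which 6 genes passed (0.0397%), 3 lower (0.0199%) and 3 higher (0.0199%). The log2 fold change was negative for 8 members and for 49.3% of all genes. DESeq2 called 2 members lower, where it called 0.364% of all genes. At an unadjusted p under 0.05, 5 members were lower and 0 higher in edgeR's quasi-likelihood test, where 3.12% of all genes were lower and 4.97% higher. The median log2 fold change of the members was -0.43, against 0.01 over all genes tested. With 2 libraries against 2, an exact permutation test of a single gene cannot give a 2-sided p below 0.333.

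**Figure D2:**
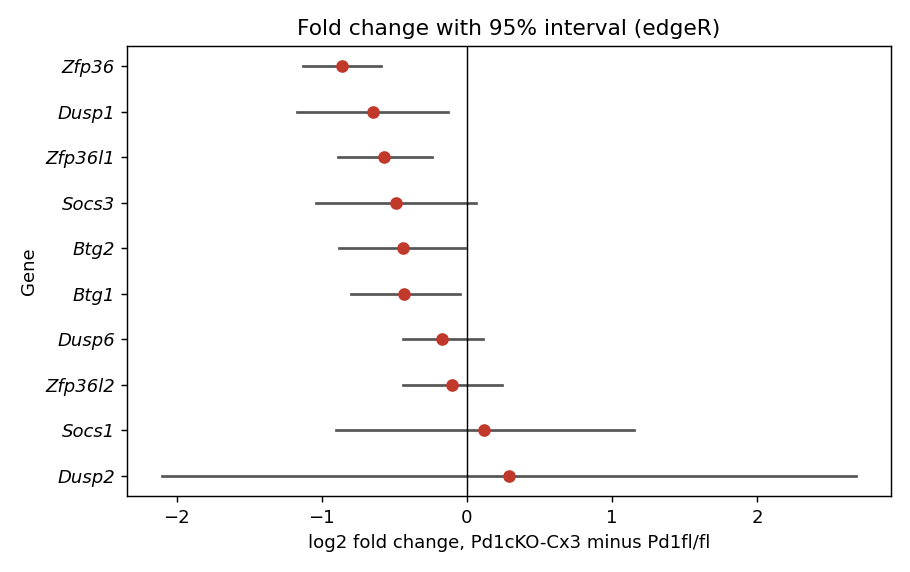
Log2 fold change of each member, Pd1cKO-Cx3 minus Pd1fl/fl, from edgeR (points) with its 95% interval (lines). The intervals of Zfp36, Dusp1, Zfp36l1, Btg2 and Btg1 lie below 0 before any adjustment over genes, and that of Dusp2 spans -2.10 to 2.68.

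Among the mRNA decay factors, Zfp36, which encodes tristetraprolin, had 2492 and 2840 CPM in Pd1fl/fl replicates 1 and 2 and 1588 and 1359 CPM under the label Pd1cKO-Cx3 replicates 2 and 3. The groups were far apart, the lower control standing 1.569 times above the higher of the other libraries. The log2 fold change was -0.86 ± 0.11 (SE, 95% interval -1.13 to -0.59), and it missed the threshold over all genes (edgeR adjusted p = 0.148), with the 27th smallest p of 15097. Other settings gave the call: the edgeR adjusted p was 0.0317 with no filter on low counts and 0.0397 with at least 5 CPM in 2 libraries, and DESeq2 gave 5.46e-11. Why the settings differ was not tested. In fits without 1 library the log2 fold change ran from -0.98 to -0.75.

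Its relative Zfp36l1 had 202 and 224 CPM in the controls and 139 and 151 CPM under the label Pd1cKO-Cx3, again without overlap. The log2 fold change was -0.57 ± 0.13 (SE, edgeR adjusted p = 0.464), and DESeq2 gave an adjusted p of 0.0245. Zfp36l2, the third of the family, had 118 and 114 CPM against 105 and 113 CPM. These groups touched, with 1.012 between the lower control and the higher of the others, and the log2 fold change was -0.10 ± 0.14 (SE, 95% interval -0.44 to 0.24, edgeR adjusted p = 0.935). The 95% intervals of Zfp36 and Zfp36l2 did not overlap, but the difference between the 2 genes' fold changes was not tested. Within the family, Zfp36 took 87.7% and 88.4% of the CPM per kb in the controls and 85.7% and 82.6% under the label Pd1cKO-Cx3, while Zfp36l2 took 4.09% and 3.49% against 5.57% and 6.73%.

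Of the BTG pair, Btg1 stood at 219 and 218 CPM in the controls and at 183 and 145 CPM under the label Pd1cKO-Cx3. The controls were close to each other and the other libraries were spread, and the log2 fold change was -0.43 ± 0.15 (SE, edgeR adjusted p = 0.569). It was -0.26 without Pd1cKO-Cx3-labelled replicate 3 and -0.60 without replicate 2 of that label. Btg2, a target of p53 as well as an early-response gene, had 888 and 1182 CPM against 852 and 680 CPM. Here the lower control exceeded the higher of the others by a factor of 1.042 only, and the log2 fold change was -0.44 ± 0.18 (SE, edgeR adjusted p = 0.606). Leaving out 1 control moved it to -0.22 without Pd1fl/fl replicate 2 and -0.64 without Pd1fl/fl replicate 1.

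Of the phosphatase genes, Dusp1, whose product acts in the nucleus mainly on p38 and JNK, had 366 and 540 CPM in the controls and 319 and 263 CPM under the label Pd1cKO-Cx3. The log2 fold change was -0.65 ± 0.21 (SE, edgeR adjusted p = 0.542, DESeq2 adjusted p = 0.0518). As the controls differed from each other by 0.56 on the log2 scale, it ran from -0.34 without Pd1fl/fl replicate 2 to -0.90 without Pd1fl/fl replicate 1. Dusp6, the ERK phosphatase, had the closest groups among the 8 members without overlap, with 597 and 705 CPM against 592 and 577 CPM and a fold change of -0.17 ± 0.11 (log2, SE, 95% interval -0.44 to 0.11, edgeR adjusted p = 0.793). It ran from -0.04 without Pd1fl/fl replicate 2 to -0.28 without Pd1fl/fl replicate 1. Dusp2 was scarce, with 26 and 32 counts in the controls and 15 and 56 under the label Pd1cKO-Cx3. The last 2 libraries were its lowest and its highest, and its fold change, 0.29 ± 0.97 (log2, SE, edgeR adjusted p = 0.982), leaves its direction unknown.

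Socs3, which is induced by STAT3, had 222 and 318 CPM in the controls and 219 and 168 CPM under the label Pd1cKO-Cx3. The lower control and the higher of the others were almost equal, at a ratio of 1.015, and the log2 fold change was -0.49 ± 0.22 (SE, edgeR adjusted p = 0.659). It moved to -0.20 without Pd1fl/fl replicate 2 and -0.73 without Pd1fl/fl replicate 1. Socs1, a target of interferons, had 9.43 and 8.55 CPM against 7.50 and 12.2 CPM, so 1 library labelled Pd1cKO-Cx3 stood below and 1 above both controls. Its log2 fold change was 0.12 ± 0.41 (SE, 95% interval -0.90 to 1.15, edgeR adjusted p = 0.983).

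The libraries of a group did not contribute alike. Pd1fl/fl replicate 2 was the highest library for 6 of the 10 members, and the library labelled Pd1cKO-Cx3 replicate 3 was the lowest for 6. Between the 2 controls, Dusp1, Socs3, Btg2 and Dusp2 were higher in replicate 2 by 0.56, 0.52, 0.41 and 0.40 on the log2 scale, while Btg1, Zfp36l2 and Socs1 differed by -0.01, -0.05 and -0.14. Between the Pd1cKO-Cx3-labelled libraries, Dusp2 and Socs1 were higher in replicate 3 by 1.78 and 0.70, and Socs3, Btg1, Btg2 and Dusp1 were lower by 0.38, 0.34, 0.33 and 0.28. The median over the members was -0.21 without Pd1fl/fl replicate 2 and -0.29 without Pd1cKO-Cx3-labelled replicate 3, and in the latter fit all 10 values were negative.

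In the authors' deposited tables, which each set 1 library labelled Pd1cKO-Cx3 against 1 control and so share libraries, 7 of the 10 members carried no mark of significance. The authors' deposited table of replicate 3 against Pd1fl/fl replicate 2 marked Zfp36 (log2 fold change -1.06) and Dusp1 (-1.04) as lower, in a table where 15.0% of genes were marked lower. For Zfp36 the authors' deposited tables gave -0.65 and -0.84 for replicate 2 and -0.88 for replicate 3 against Pd1fl/fl replicate 1, none of them past the mark, which asks for a log2 change over 1. Dusp2 was marked in opposite directions, lower in the authors' deposited table of replicate 2 against Pd1fl/fl replicate 2 (-1.03, where 10.4% of genes were marked lower) and higher in that of replicate 3 against Pd1fl/fl replicate 1 (1.15, where 18.3% were marked higher). These p-values compare 2 libraries, not the genotypes.

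Transcription factors induced in the same early wave were lower as well in several cases, although none of 17 passed edgeR over all genes. In this list 15 log2 fold changes were negative (49.3% of all genes were) and the median was -0.36, against 0.01 over all genes tested. Without overlap, 7 genes were lower and 2 higher, where 18.8% of all genes tested were lower and 21.3% higher. The median was -0.64 without Pd1fl/fl replicate 1 and -0.56 over the genes with at least 5 CPM in 2 libraries. Fos had 1549 and 1616 CPM in the controls and 1120 and 1036 CPM under the label Pd1cKO-Cx3, and Fosb had 229 and 263 against 104 and 102 CPM. Junb had 1747 and 2008 against 1039 and 1089 CPM, and Egr1 2555 and 2976 against 1499 and 1706 CPM. The log2 fold changes of these 4 were -0.56, -1.26, -0.83 and -0.80 (edgeR adjusted p from 0.0958 to 0.211). Ier2, by contrast, had 265 and 163 against 153 and 237 CPM, so its groups overlapped. In DESeq2, 5 of the 17 were lower past the threshold, as were 0.364% of all genes. A list of 24 genes known to respond to tissue dissociation shares Fos, Fosb, Jun, Junb, Egr1, Ier2, Atf3 and Nr4a1 with the one above. Its median was -0.21, with 9 genes lower without overlap and 1 higher (18.8% and 21.3% of all genes tested). Mean log2(CPM + 1) of that list was 7.40 and 7.66 in the controls and 7.23 and 7.30 under the label Pd1cKO-Cx3, in the same direction as the members, and its median was -0.08 without Pd1fl/fl replicate 2, -0.37 without Pd1fl/fl replicate 1 and -0.36 without Pd1cKO-Cx3-labelled replicate 3. Its part in their difference was not tested.

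**Figure D3:**
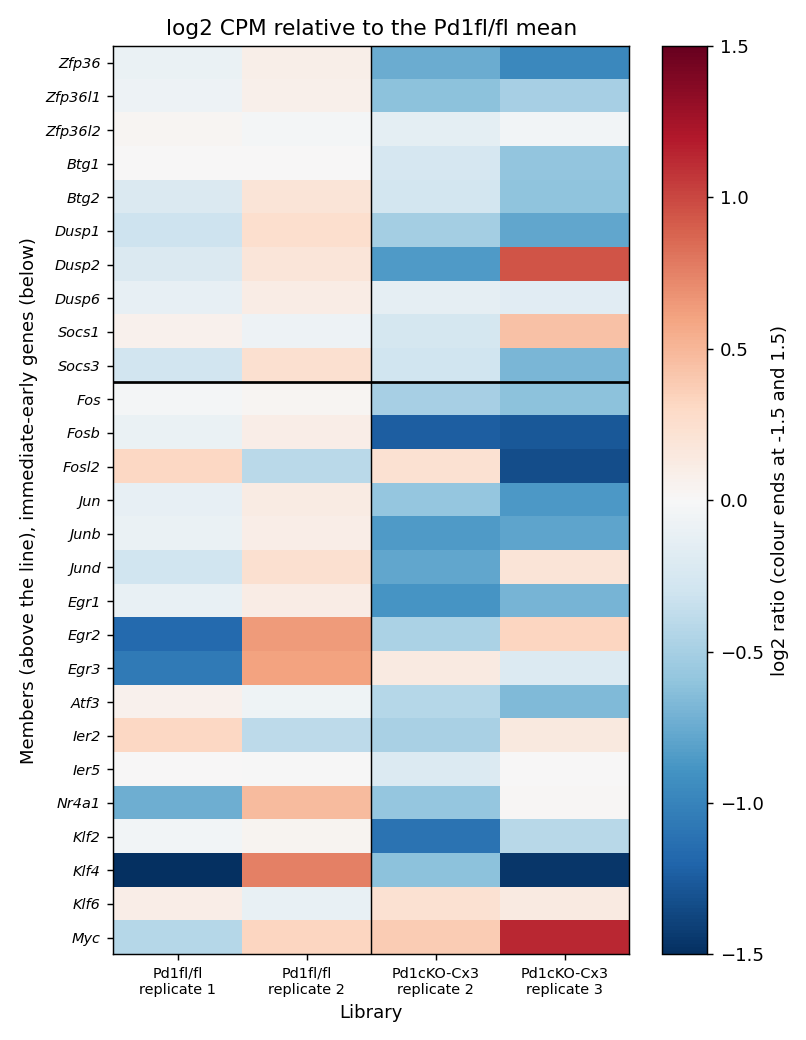
Log2 CPM of each library relative to the mean of the Pd1fl/fl libraries, for the 10 members (above the line) and 17 immediate-early transcription factor genes (below), with blue for lower and red for higher. Zfp36 and Zfp36l1 are blue in both Pd1cKO-Cx3 columns, as are Fos, Fosb, Jun, Junb and Egr1, whereas Dusp2 and Socs1 change colour between these columns.

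Downstream of the ZFP36 proteins, mRNAs known for AU-rich elements were split by the sign of their log2 fold change. Of 18 such genes 14 were tested, 7 had positive and 7 negative log2 fold changes, the median was 0.02, and none passed edgeR over all genes. The median was 0.52 without Pd1fl/fl replicate 2 and -0.09 without Pd1fl/fl replicate 1. Without overlap, 4 were higher (Il1b, Il6, Cxcl10 and Csf1) and 1 was lower (Plaur), of which all but Il1b are named after their values were seen. Over all genes tested, 21.3% were higher and 18.8% lower without overlap. Csf1 had 28.3 CPM in Pd1fl/fl replicate 2 and 28.4 CPM in Pd1cKO-Cx3-labelled replicate 2, and its groups overlapped with TMM-scaled CPM. Cxcl10, also an interferon response gene, had 0 and 2 counts in the controls and 161 and 358 under the label Pd1cKO-Cx3, and was the 1 gene of the list that DESeq2 called (adjusted p = 3.86e-08, edgeR adjusted p = 0.148). Il6 had 2.07 and 1.48 against 8.98 and 3.75 CPM (edgeR adjusted p = 0.606). Tnf, the best known target of tristetraprolin, had 7.54 and 27.7 CPM in the controls and 18.9 and 15.2 CPM under the label Pd1cKO-Cx3, so the controls enclosed the others. Il1b was low, with 2.58 and 1.82 against 5.05 and 5.17 CPM (log2 fold change 1.20 ± 0.64, SE, edgeR adjusted p = 0.722). The chemokine genes Ccl3 and Ccl4 overlapped between groups, with log2 fold changes of -0.20 ± 0.16 and -0.36 ± 0.43 (SE), and Cxcl2 had at most 1.35 CPM and was not tested. The decay machinery itself had a median of -0.08 over 25 genes, with none past edgeR's threshold. Without overlap 8 were lower and 3 higher, where the shares of all genes tested were 18.8% and 21.3%. The median was 0.01 without Pd1cKO-Cx3-labelled replicate 2 and -0.21 without replicate 3 of that label. The scaffold gene Cnot1 had 107 and 147 against 108 and 118 CPM and the deadenylase gene Cnot7 42.9 and 37.4 against 33.3 and 46.0 CPM. Cnot8, named after its values were seen, had 393 and 367 against 292 and 260 CPM. Its log2 fold change was -0.47 ± 0.12 (SE, edgeR adjusted p = 0.486, DESeq2 adjusted p = 0.0275). Tob1 and Btg3, relatives of the BTG pair, were at or below 1.26 CPM in each library.

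Around the phosphatases, 22 of 24 MAP kinase pathway and feedback genes were tested, with a median of -0.05 and none past edgeR's threshold. Without overlap 5 were lower and 3 higher, where the shares of all genes tested were 18.8% and 21.3%. Mapk14, which encodes p38α, had 162 to 190 CPM in the 4 libraries. Spry1, an ERK pathway inhibitor, had 22.1 and 28.5 against 17.3 and 13.9 CPM (log2 fold change -0.71 ± 0.29, SE), and Spred1, another, had 34.3 and 40.8 against 47.3 and 60.4 CPM (0.51 ± 0.23, SE), with edgeR adjusted p of 0.626 and 0.656. Dusp4 was at most 4.78 CPM, and Dusp5 had at most 0.839 CPM and was not tested.

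Around the SOCS genes, 30 of 31 JAK-STAT genes were tested, with a median of -0.06 and none past edgeR's threshold. Without overlap 10 were lower and 9 higher, where the shares of all genes tested were 18.8% and 21.3%. Stat3, which drives Socs3, had 364 and 361 CPM in the controls against 326 and 349 CPM (log2 fold change -0.11 ± 0.10, SE, edgeR adjusted p = 0.876). Il6st, which encodes gp130, had 573 and 546 against 478 and 428 CPM, and Irf1 had 63.8 and 71.7 against 78.9 and 84.4 CPM. Socs2 was at most 2.65 CPM, and Cish had at most 0.808 CPM and was not tested. In a list of 20 interferon response genes all 20 were higher without overlap (21.3% of all genes were), the median log2 fold change was 2.27, and 1 gene, Oas2, passed edgeR over all genes (12.2 and 17.8 against 197 and 159 CPM, log2 fold change 3.56 ± 0.25, SE, adjusted p = 0.0369). Without either library under the label Pd1cKO-Cx3 no gene of this list passed edgeR, and without Pd1fl/fl replicate 2 the number was 5. Socs1, known as an interferon-induced gene, had the values given above, a log2 fold change of 0.12 with overlapping groups.

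**Figure D4:**
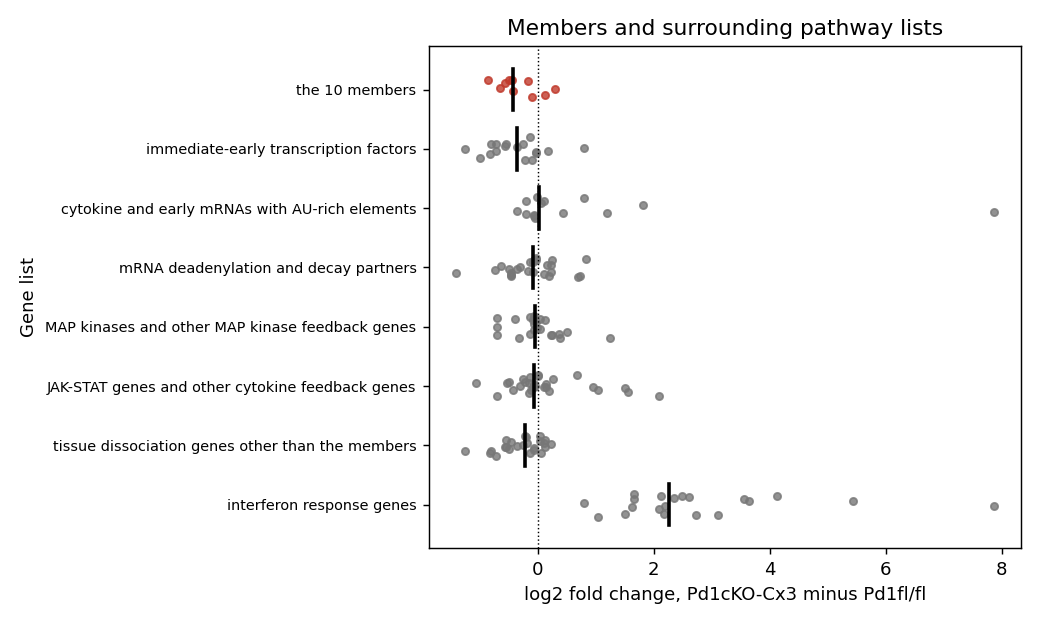
Log2 fold change of each tested gene, Pd1cKO-Cx3 minus Pd1fl/fl, for the 10 members (red) and 7 gene lists around them (grey), with the median of each as a black bar. The members lie around -0.43 and the immediate-early genes around -0.36, the decay, MAP kinase and JAK-STAT lists near 0, and the interferon response genes around 2.27.

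Patterns over the libraries were compared by the root-mean-square difference of log2 CPM after centring each gene on its mean, over 4 libraries and 9466 genes above a mean of 5 CPM. With so many genes and 4 points, close matches are frequent, and they are named as a description only. Among the members themselves, Btg2 and Socs3 were nearest to each other, at 0.049, and Dusp1 was nearest to Socs3, at 0.083. Outside them, the genes closest to Socs3 were Arhgap12 (0.018), Ndrg4 (0.034) and Ppp1r15a (0.042), and those closest to Btg2 were Cnih4 (0.029), Prpf39 (0.030) and Sgk1 (0.032). Ppp1r15a, which encodes the stress-induced eIF2α phosphatase subunit GADD34, had 148 and 216 against 152 and 121 CPM. The closest genes to Zfp36 were Gp9 (0.007), Trmt10b (0.039) and Mttp (0.049), scarcer genes with 6.97 to 23.5 CPM, and those to Zfp36l1 were Tesk2, Tango2 and Myo1d (0.032 to 0.036). Dusp1 lay closest to Lmln, AC132954.2 and Zc3h7b (0.030 to 0.040), and Btg1 close to Sdccag8 (0.011) and Ggt5 (0.022). For Socs1 the closest were Sertad3, Mrpl3 and Dusp7 (0.016 to 0.034), and for Dusp2 P3h3, Atxn1l and Plec (0.067 to 0.125).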

How the data were processed

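The data came as pairwise tables (1 Pd1cKO-Cx3-labelled library, 1 control), so each library appears in a pair of tables, with identical counts in both. The authors deposited counts of reads for each Ensembl gene, with no normalization. Their deposited CPM values divide by the total of a library and use 0.5 in place of a zero. Deposited fold ratio, log2 and p-value columns describe 1 library against another, with no tool named in the sources used here. Bowtie2 2.2.3, TopHat2 2.0.12, HTSeq 0.6.0 and mm9 are listed in the submitters' processing notes, but 92.1% of 20276 gene identifiers had their GENCODE M21 position on GRCm38, so coordinates are read as GRCm38. Genes absent from a library's tables (3158 of 20308, no member) counted as 0. Totals were 14258420 to 15908954 counts.

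All genes entered a genotype comparison with edgeR 4.0.16 in R 4.3.3 (TMM factors, filterByExpr, quasi-likelihood test, Benjamini-Hochberg at 0.05), with genotype alone in the model. Fold changes are Pd1cKO-Cx3 minus Pd1fl/fl, an SE is the fold change over the square root of its F value, and CPM is relative to the library total, with SD over 2 libraries. DESeq2 1.42.0 and the other settings are given in the closing section. Levels per kb used GENCODE M21 exons within the deposited span. The UTR search was added after the data were seen, and protein sequences were not used here. The members and lists were chosen with earlier results of these data known. Genes named are the members, Pdcd1, genes fixed by name in each list, list genes past the threshold, and the 3 nearest in pattern to each member whose log2 range exceeded 0.5. Xist, Ddx3y, Gm26669, Ergic1, Cnot8, Il6, Cxcl10, Csf1, Plaur and genes listed as shared by 2 lists were added after their values were seen. Some of these genes are left out of the text.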

Additional observations from a re-analysis of the deposited data

How the results depend on the processing

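No member changed the sign of its fold change under another scaling, filter or tool (Dusp2 was not tested at 5 CPM), and the median over all genes lay between -0.02 and 0.03 with these. The number of members past the threshold was 0 in edgeR, 1 with no filter on low counts, 1 at 5 CPM in 2 libraries and 2 in DESeq2, and 0 in each fit without a library. Over all genes 6 passed, 32 with no filter, 32 at 5 CPM in 2 libraries and 234 in DESeq2, and 4 to 21 without a library, the highest without Pd1fl/fl replicate 2. Without Pd1cKO-Cx3-labelled replicate 3 the log2 fold changes of Dusp2 and Socs1 turned negative, their ranges without a library being -0.84 to 0.92 and -0.26 to 0.43. The median over the members ran from -0.55 to -0.21 without a library.

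For the lists, the counts with no filter, at 5 CPM in 2 libraries and in DESeq2 are given in turn. They were 3, 3 and 5 immediate-early genes, 3, 3 and 6 dissociation genes and 1, 1 and 1 AU-rich mRNAs. JAK-STAT genes numbered 1, 1 and 3 and interferon response genes 9, 9 and 18, and DESeq2 gave 1 decay gene. In DESeq2 the immediate-early, dissociation and decay genes called were all lower. The AU-rich, JAK-STAT and interferon response genes that it called were all higher. The decay median turned positive without Pd1cKO-Cx3-labelled replicate 2. The MAP kinase median ran from -0.07 to 0.03, positive without Pd1fl/fl replicate 2, and the JAK-STAT median from -0.1 to 0.02, positive without Pd1fl/fl replicate 1 (0.01) and without Pd1cKO-Cx3-labelled replicate 2. The causes of these shifts were not tested. No paired analysis was possible because the groups share 1 replicate number. Dusp2 rests on the lowest counts, 15 to 56 a library. A fit without a library assumes that the lone library varies like the other group.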
